A study of Zea mays with 4 samples.

Results

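BX9 and C2 are 2 maize genes that were taken from a table of 22525 gene and locus IDs because their IDs read exactly BX9 and C2. Per the RefSeq gene names, BX9 corresponds to the synonym bx9 and C2 to the synonyms c2 and colorless2, and each is a protein-coding gene. The rule that picked them used their IDs and not their counts, but they were chosen with earlier results of these data known. Transcripts of maize (Zea mays) were counted in whole V3-stage seedlings, with roots and shoots ground together, from plants kept in a greenhouse under 14 h of light and 10 h of dark. The HiII group holds 2 libraries of the hybrid of the lines A188 and B73, described by the labels as an F1. The B73 group holds 2 libraries of the inbred line B73, which is a parent of that hybrid. In each group a library carries the code RPI10 and the other the code RPI11. No label says whether these came from separate plants, so the p-values measure only the spread between these libraries, which may be technical.

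Benzoxazinoids are indole-derived defence compounds of grasses that build up in young maize seedlings. BX1 opens the pathway by releasing indole, cytochrome P450 enzymes oxidise it, and the glucosyltransferases BX8 and BX9 attach glucose to the toxic products DIBOA and DIMBOA so that they can be stored. The dioxygenase BX6 acts on a glucoside formed in this way. The β-glucosidase GLU1 removes that glucose when tissue is damaged. C2 is chalcone synthase, which condenses p-coumaroyl-CoA with malonyl-CoA in the entry step of flavonoid synthesis, the route to anthocyanin pigments. WHP1 is its duplicate copy in maize. BX9 with BX8, and C2 with WHP1, are related in sequence, and how reads shared between such copies were counted is not given in the sources used here, so the counts of each carry that uncertainty.

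Library totals were 1341976 (RPI10) and 883812 (RPI11) counts in HiII, against 275271 (RPI10) and 403858 (RPI11) in B73. Depth therefore differed in the same direction as genotype. A single count was worth 0.745 and 1.13 CPM of the library total (CPM being counts scaled to a total of 1e+06) in the HiII libraries, against 3.63 and 2.48 CPM in the B73 libraries. The trimmed mean of M-values (TMM), a composition correction that centres the bulk of the genes, gave factors of 0.761 and 0.795 for HiII and of 1.31 and 1.27 for B73. Relative to library totals, TMM thus raises every HiII value and lowers every B73 value. Because of this gap, each result on BX9 and C2 is given on TMM-scaled totals and on library totals.

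BX9 stood higher relative to C2 in both HiII libraries than in both B73 libraries. How often other pairs of tested IDs separate in this way was not counted. Taken singly on TMM-scaled totals, 36.1% of the tested IDs had both HiII libraries above both B73 libraries, and 40.2% had both below. The scaling set which of the 2 genes differed more between the genotypes. On TMM-scaled totals BX9 was 1.79-fold as high in HiII as in B73 while C2 was 0.876-fold, and on library totals BX9 was 1.08-fold and C2 0.530-fold. In neither scaling did BX9 or C2 pass an adjusted p of 0.05. Of the 3282 IDs tested, 50.6% passed with TMM and 56.0% with library totals (edgeR quasi-likelihood test, Benjamini-Hochberg adjustment over all tested IDs). With TMM 25.3% of IDs were called higher and 25.4% lower in HiII, against 14.7% higher and 41.3% lower with library totals. In whole-seedling RNA, fewer cells of a type and less RNA per cell cannot be told apart.

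BX9 had 157 and 81 counts in the HiII libraries (RPI10 and RPI11), against 29 and 36 counts in the B73 libraries. On TMM-scaled totals this was 154 and 115 CPM in HiII, against 80.7 and 70.4 CPM in B73. Both HiII libraries lay above both B73 libraries, as they did for 36.1% of the tested IDs. The exact 95% intervals (Clopper-Pearson, counting error only) were 131 to 179.6 and 91.6 to 143 CPM in HiII, against 54.1 to 116 and 49.3 to 97.5 CPM in B73. The interval of the HiII RPI11 library overlapped those of both B73 libraries. The group means were 134 ± 27.1 CPM in HiII and 75.6 ± 7.28 CPM in B73 (SD, n = 2 libraries each). The fitted log2 fold change of this glucosyltransferase was 0.84 (SE 0.38, 95% interval 0.0098 to 1.67). Its unadjusted p was 0.0477 in that fit and its edgeR adjusted p was 0.0856.

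The call on BX9 differed between settings. Without the HiII RPI11 library, and with the RPI10 library as the sole HiII sample, assumed to vary like the B73 pair, the log2 fold change was 1.21 and the edgeR adjusted p 0.0124, in a fit where 26.2% of IDs were called higher in HiII. Without each of the other libraries in turn, BX9 was not called. BX9 was also called with DESeq2 size factors used inside edgeR (log2 fold change 1.06, edgeR adjusted p = 0.0338), where 28.9% of IDs were called higher in HiII. The same fold change was not called by DESeq2 itself (DESeq2 adjusted p = 0.176), which called 13.3% of its IDs higher in HiII. In a single random draw of every library to the smallest total of 275271 counts, the log2 fold change of BX9 was 0.38 (edgeR adjusted p = 0.479), or 1.30-fold. Against a 2-fold threshold on the TMM scale, which 31.0% of the tested IDs passed, the adjusted p of BX9 was 0.597 (edgeR glmTreat).

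On library totals BX9 stood at 117 and 91.6 CPM in HiII, against 105 and 89.1 CPM in B73. The groups overlapped, since the RPI11 library of HiII lay below the RPI10 library of B73, whereas 23.8% of the tested IDs had both HiII libraries above both B73 libraries on this scale. The means were 104 ± 17.9 CPM in HiII and 97.2 ± 11.5 CPM in B73 (SD, n = 2 each), a difference smaller than the spread within HiII. The log2 fold change was 0.11 (SE 0.40, edgeR adjusted p = 0.827), with an interval of -0.72 to 0.95. On this scale the data leave room both for a lower and for a nearly 2-fold higher level of BX9 in HiII.

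C2 had 133 and 82 counts in the HiII libraries, against 50 and 73 counts in the B73 libraries. On TMM-scaled totals chalcone synthase transcripts were at 130 and 117 CPM in HiII, against 139 and 143 CPM in B73. Both HiII libraries were below both B73 libraries, as for 40.2% of the tested IDs, but the counting intervals of all 4 libraries overlapped. They ran from 92.8 to 154 CPM over the HiII libraries, against 103 to 183 CPM over the B73 libraries. The means were 123 ± 9.48 CPM in HiII and 141 ± 2.56 CPM in B73 (SD, n = 2 each). The log2 fold change was -0.19 (SE 0.36, edgeR adjusted p = 0.682), and its interval of -0.98 to 0.60 includes a level in HiII close to 0.5-fold as well as 1.5-fold. The value moved in both directions with the setting. It was 0.04 with DESeq2 size factors and 0.07 without the HiII RPI11 library. In a single random draw of every library to the smallest total it was -1.05, or 0.484-fold (edgeR adjusted p = 0.0537). This was the lowest value of the settings tried, and the draw was not repeated.

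On library totals C2 stood at 99.1 and 92.8 CPM in HiII, against 182 and 181 CPM in B73. The B73 libraries were nearly equal, and both HiII libraries lay below them, with counting intervals of 83.0 to 117 and 73.8 to 115 CPM in HiII, against 135 to 239 and 142 to 227 CPM in B73. None of the HiII intervals reached a B73 interval. HiII averaged 95.9 ± 4.47 CPM and B73 181 ± 0.624 CPM (SD, n = 2 each). The log2 fold change was -0.91 (SE 0.38, edgeR adjusted p = 0.0506), just outside the threshold, on a scale where 54.7% of the tested IDs had both HiII libraries below both B73 libraries. With totals summed over the tested IDs alone, an alternative added after seeing the data, C2 was called lower in HiII (-0.97, edgeR adjusted p = 0.0385), as were 42.6% of IDs. Against a 2-fold threshold on library totals, which 34.6% of IDs passed, the adjusted p of C2 was 0.485 and that of BX9 was 0.976 (edgeR glmTreat).

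**Figure D1:**
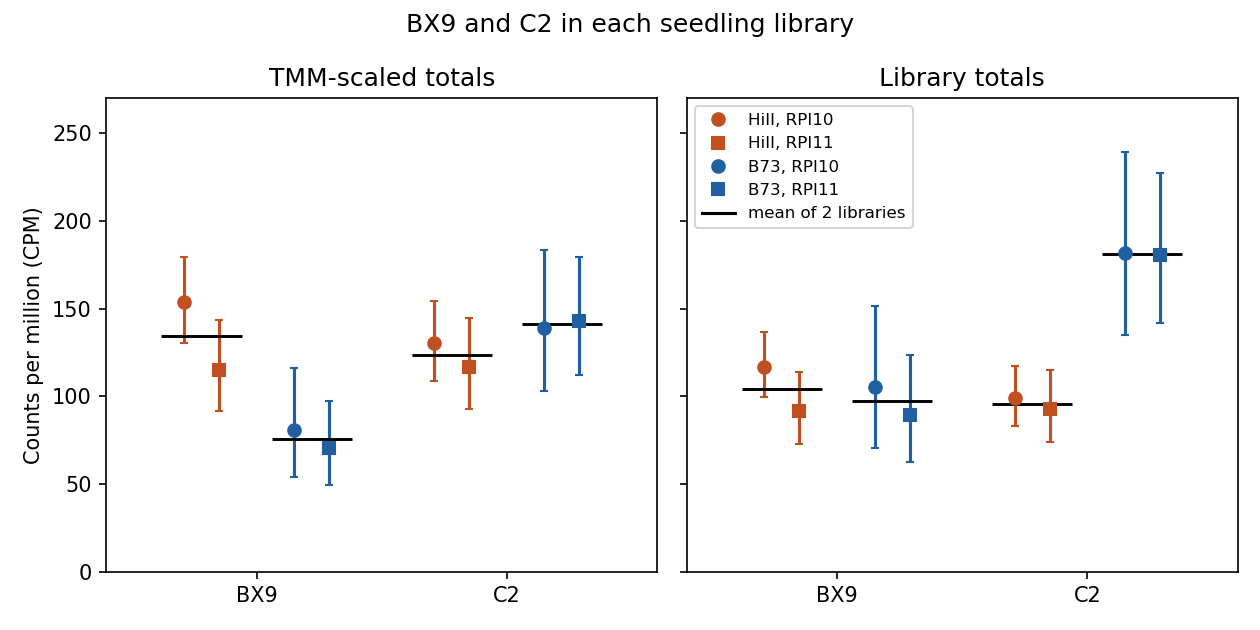
CPM of BX9 and C2 (y axis) in each of the 4 libraries, on TMM-scaled totals (left) and library totals (right), with HiII in orange and B73 in blue. Bars are exact 95% counting intervals and black lines are means of 2 libraries. The means of BX9 are farther apart on the left (134 CPM in HiII against 75.6 CPM in B73) and those of C2 on the right (95.9 CPM in HiII against 181 CPM in B73).

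The relation between BX9 and C2 inside a library needs no scaling. BX9 made up 54.1% (95% exact interval 48.2 to 60.0) and 49.7% (41.8 to 57.6) of the BX9 plus C2 counts in the HiII libraries RPI10 and RPI11. In the B73 libraries it made up 36.7% (26.1 to 48.3) and 33.0% (24.3 to 42.7). Both HiII libraries lay above both B73 libraries. How often other pairs of tested IDs separate in this way was not counted, so the gap is not read as particular to BX9 and C2. Taken singly on TMM-scaled totals, 36.1% of the tested IDs had both HiII libraries above both B73 libraries, and 40.2% had both below. The intervals of the RPI10 library of B73 overlapped those of both HiII libraries, and the interval of the RPI11 library of B73 overlapped that of the RPI11 library of HiII. BX9 averaged 51.9% ± 3.14 of the pair in HiII and 34.9% ± 2.60 in B73 (SD, n = 2 each), a difference of 17.05 percentage points that was larger than the spread within either genotype. An exact two-sided permutation test over libraries gave p = 0.333, which is the smallest value that 2 libraries against 2 can give, so this design cannot bring the difference past 0.05.

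As a ratio, HiII had 1.18 and 0.988 BX9 counts per C2 count, against 0.580 and 0.493 in B73. Counts were not divided by transcript length, so the ratio is read only between libraries and not as the relative abundance of the 2 transcripts. Within RPI10 the log2 of this ratio was 1.03 higher in HiII than in B73, and within RPI11 it was 1.00 higher. The genotype difference in the ratio was thus alike in both codes. The ratio itself was lower in RPI11 than in RPI10 in both genotypes. Its log2 was 0.239 (RPI10) and -0.018 (RPI11) in HiII, against -0.786 and -1.02 in B73. The B73 ratios rest on 29 to 73 counts per gene and library, so the closeness of 1.03 and 1.00 is not read further. For BX9 alone, on TMM-scaled totals, HiII exceeded B73 by 0.93 log2 units within RPI10 and 0.71 within RPI11. For C2 the same differences were -0.097 and -0.29. On library totals they were 0.15 and 0.040 for BX9, and -0.87 and -0.96 for C2.

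**Figure D2:**
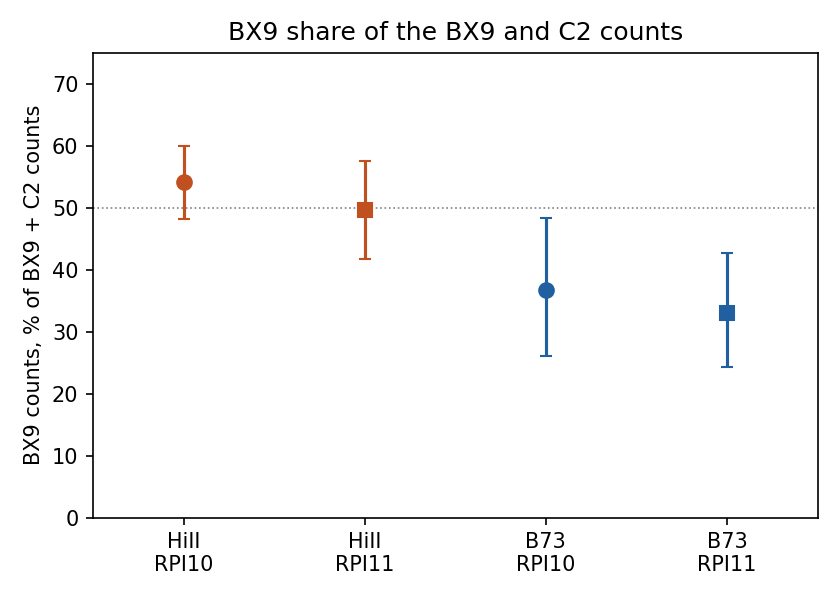
Share of BX9 in the summed BX9 and C2 counts (y axis, percent) in each library, with exact 95% counting intervals as bars and a dotted line where both genes have equal counts. The HiII libraries sit at 54.1% and 49.7%, above the B73 libraries at 36.7% and 33.0%.

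Under 7 ways of scaling the same counts, the log2 fold change of BX9 ran from 0.052 to 1.06 (edgeR adjusted p from 0.922 to 0.0338) and that of C2 from -0.97 to 0.04 (edgeR adjusted p from 0.0385 to 0.942). The difference between the 2 genes, BX9 minus C2, stayed between 1.02 and 1.03. A scaling moves both genes of a library alike, so this near-constancy follows from the calculation and is no test. Settings that change the counts or the libraries moved the difference. It was 0.887 to 1.145 without each library in turn. At equal depth it was 1.43, in a single random draw. Such a draw leaves the expected ratio of the 2 genes in a library unchanged, so this move is not read as an effect of depth. The median log2 fold change of all tested IDs moved with the scaling too, and was -0.04 with TMM and -0.76 with library totals. Relative to that median, BX9 lay 0.88 higher with TMM and 0.87 higher with library totals. C2 lay at -0.15 with TMM and -0.16 with library totals relative to the same median. C2 was therefore near the middle of the tested IDs, and BX9 was above it. A scaling shifts the genes and the median together, so the likeness of the 2 scalings here also follows from the calculation. In the same single draw to equal depth, C2 lay at -0.82 and BX9 at 0.61 relative to the median of the IDs tested there.

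**Figure D3:**
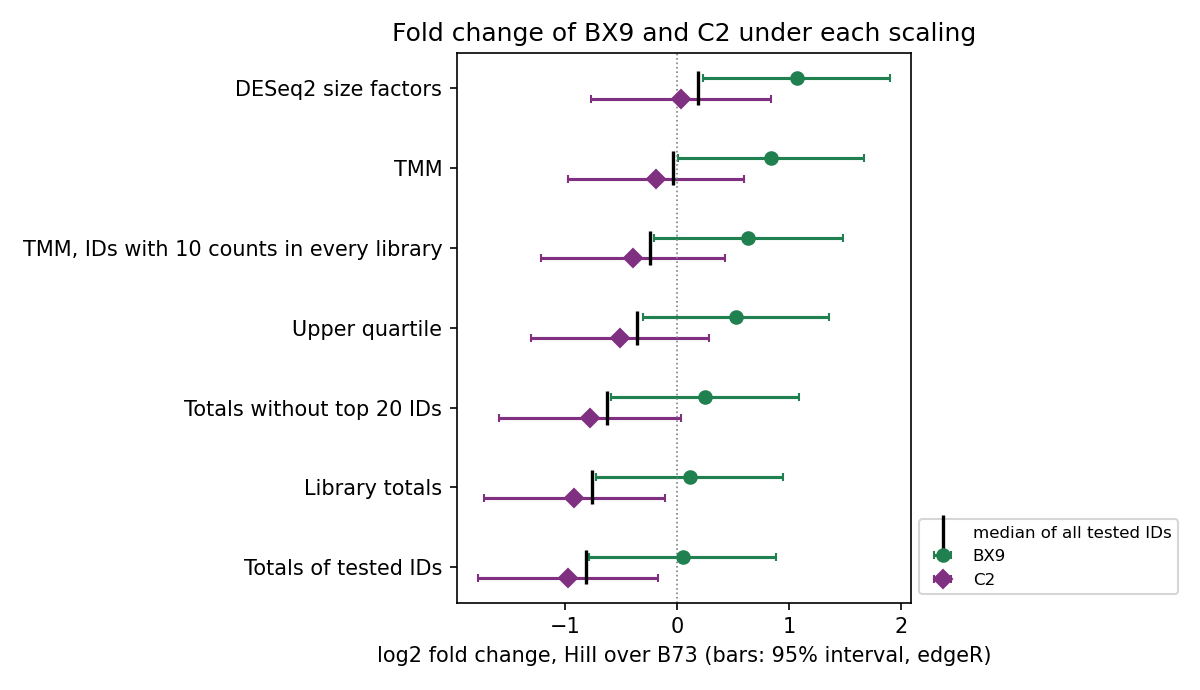
Log2 fold change of HiII over B73 (x axis) for BX9 (circles) and C2 (diamonds) under 7 scalings (y axis), with 95% intervals from edgeR and the median of all tested IDs as a vertical tick. The genes and the median shift together, as any scaling makes them do, so that BX9 stays about 1.03 above C2.

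Among the 3282 tested IDs, 68.3% had a lower log2 fold change than BX9 with TMM and 68.1% with library totals. For C2 these shares were 46.8% and 46.7%. The interquartile range of all tested IDs was -1.26 to 1.22 with TMM and -1.98 to 0.51 with library totals, and both BX9 and C2 fell inside it. Because a scaling shifts all IDs together, the 2 scalings must give nearly the same place, and their likeness is no test. Measured by absolute size with TMM, 8.32% of the tested IDs differed less between the genotypes than C2 did, and 35.9% differed less than BX9 did. On library totals the order turned, with 34.5% differing less than C2 and 4.33% less than BX9.

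**Figure D4:**
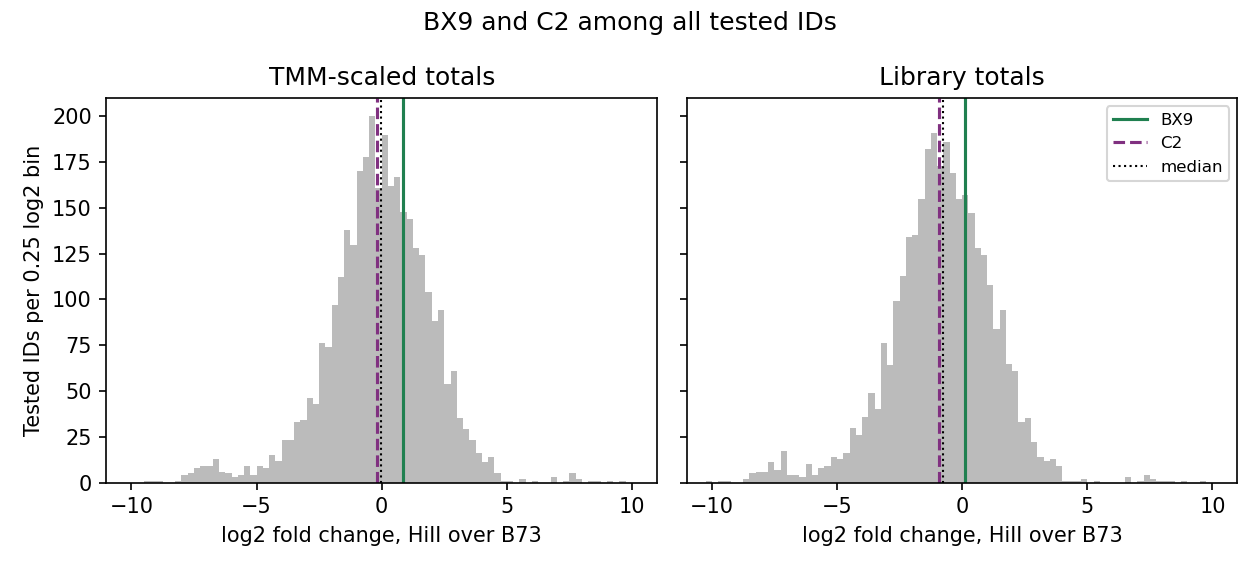
Number of tested IDs (y axis) by log2 fold change of HiII over B73 (x axis) on TMM-scaled totals (left) and library totals (right). BX9 (solid line) lies right of the median (dotted) and C2 (dashed) close to it in each panel, and neither reaches the tails.

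Apart from BX9, the benzoxazinoid genes matched by symbol had few counts. Of a list of 19 benzoxazinoid genes, 4 were matched by symbol to the deposited IDs, and BX9 was the only one with enough counts to be tested. BX1, which forms free indole, had 1 and 1 counts in HiII, against 0 and 2 in B73. BX6, the dioxygenase that hydroxylates the glucoside DIBOA-Glc, had 1 and 6 counts in HiII, against 1 and 2 in B73. GLU1 had 0 and 1 counts in HiII, against 0 and 0 in B73. A count of 0 allows up to 3 counts, which is 10.9 CPM of the total in the RPI10 library of B73 and 7.43 CPM in its RPI11 library, and the counts of BX1, BX6 and GLU1 were too low for these genes to enter the test. The other 15 genes of the list were not matched by symbol and were not analysed here. BX9 carried most counts of the matched pathway genes, whose sum on TMM-scaled totals was 156 and 127 CPM in HiII, against 83.5 and 78.2 CPM in B73.

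Of a list of 30 flavonoid and phenylpropanoid genes, C2 alone was matched. None of the 2 pathway genes tested, BX9 and C2 themselves, was called in either direction with TMM or library totals. Of all tested IDs, 50.6% were called with TMM and 56.0% with library totals. UGT708A6, a glycosyltransferase that acts on flavonoids in maize and was chosen after its values were seen, had 2 and 2 counts in HiII, against 0 and 0 in B73. These counts lie within the 3 counts that a 0 allows. The other 29 genes of the list were not matched by symbol and were not analysed here.

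Leaf and root transcripts contribute together to whole seedlings. Of 13 green-leaf markers listed, 3 were matched, and their summed level on TMM-scaled totals was 2259.5 and 1784 CPM in HiII, against 523 and 520.3 CPM in B73. On library totals the sums were 1721 and 1418 CPM in HiII, against 683 and 659 CPM in B73. CAB1, a chlorophyll a/b-binding protein, rose in HiII (log2 fold change 2.05, SE 0.39, edgeR adjusted p = 0.00123 with TMM), as did the leaf ferredoxin FDX2 (2.84, SE 0.42, edgeR adjusted p = 0.000309). Both were also called higher with library totals. Of all tested IDs, 25.3% were called higher in HiII with TMM and 14.7% with library totals. CAB1 made up most of the summed level, at 1909 and 1398 CPM in HiII, against 406 and 391 CPM in B73 on TMM-scaled totals. RCA1, Rubisco activase, had a log2 fold change of 0.72 (SE 0.41, edgeR adjusted p = 0.161) with TMM and of 0.0076 (edgeR adjusted p = 0.989) with library totals. On library totals RCA1 stood at 83.5 and 159.5 CPM in HiII, against 116 and 124 CPM in B73, so the groups overlapped. Of 5 root markers, only the root ferredoxin FDX3 was matched, at 1 and 2 counts in HiII, against 2 and 2 in B73. The part of leaf and root content in the values of BX9 and C2 was not tested.

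Likeness over the 4 libraries was measured as the Euclidean distance between log2(TMM-scaled CPM + 1) values, each gene centred on its own mean. Only the 88 other tested IDs deposited as gene symbols were compared, and many of these are plastid or photosynthesis genes. The remaining tested IDs, which are most of them, were left out. The profiles nearest to BX9 were those of psbA, the plastid gene for the D1 protein of photosystem II (distance 0.24), RBCS, the small subunit of Rubisco (0.24), and rps16, a plastid ribosomal protein gene (0.26). RBCS had a log2 fold change of 1.04 with TMM (SE 0.39, edgeR adjusted p = 0.0392), psbA of 0.73 (SE 0.37, edgeR adjusted p = 0.114) and rps16 of 0.70 (SE 0.39, edgeR adjusted p = 0.150). With library totals the 3 genes were at 0.31, 0.0092 and -0.028, and none was called.

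The profile nearest to C2 was that of ADF3, an actin-depolymerizing factor (distance 0.12), followed by ANT1, a mitochondrial ADP/ATP carrier (0.40), and TUBA5, an alpha tubulin (0.40). ADF3 had 50 and 29 counts in HiII, against 20 and 28 in B73. Its log2 fold change was -0.28 with TMM (SE 0.39, edgeR adjusted p = 0.567) and -1.01 with library totals (edgeR adjusted p = 0.0444). ANT1 and TUBA5 were not called in either scaling. From BX9, C2 was the 35th nearest of the 88 symbols, at a distance of 1.03. With 4 libraries in 2 groups, such distances mostly order genes by their difference between HiII and B73, and they carry no p-value.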

How the data were processed

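The authors deposited whole-number counts per ID, 1 column per library. The libraries were made by an adapted CEL-Seq2 scheme, per the labels' protocols, in which read 1 held a molecular identifier of 10 bp and a barcode of 6 bp. Per the submitters' processing notes, CASAVA 1.4, HISAT2, UMI-tools and the build B73 RefGen_v4 were used. The annotation and counting rule are not given in the sources used here. RefSeq names were taken from a table of the Zm-B73-REFERENCE-NAM-5.0 build, which differs, so no coordinates are given.

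The test was edgeR 4.0.16 (R 4.3.3): filterByExpr (minimum count 10, leaving 3282 IDs), TMM on whole library totals, glmQLFit and glmQLFTest on genotype over all 4 libraries, and Benjamini-Hochberg adjustment with a threshold of 0.05. Standard errors were the absolute log2 fold change over the square root of F. CPM intervals are Clopper-Pearson intervals. The fit was also run on simulated counts with as many IDs raised as lowered, so that run says little on the choice of scaling. Alternatives were other scalings, filters, equal depth, DESeq2 1.42.0, the RPI code as a block and leaving out each library. Named were BX9 and C2, genes matched from the pathway and marker lists, and the 3 symbols nearest to each in profile. The members and lists were chosen with earlier results of these data known.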

Additional observations from a re-analysis of the deposited data

How the results depend on the processing

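For BX9, DESeq2 size factors in edgeR (log2 fold change 1.06, edgeR adjusted p = 0.0338) and the replicate block (0.82, edgeR adjusted p = 0.0152) took the difference past the threshold, and no setting reversed it; without each library in turn it ran from 0.69 to 1.21. For C2, totals of the tested IDs took it past the threshold (-0.97), while the sign turned with DESeq2 size factors in edgeR (0.036), with DESeq2 (0.036) and without a filter (0.12); without each library it ran from -0.22 to 0.067. At equal depth BX9 was at 0.38 (edgeR adjusted p = 0.479) and C2 at -1.05 (edgeR adjusted p = 0.0537), from a single random draw. The shift between scalings follows the factors, which move all IDs together. IDs called numbered 1662 in the reported fit, 401 of 970 tested with at least 10 counts in every library, 769 of 1441 at equal depth, 756 with DESeq2, and 842 to 1318 without each library. The difference in BX9 share was 24.1 percentage points in that single draw to equal depth, where the HiII counts are thinned, and 14.8 to 19.3 without each library. Under the replicate block by RPI code, C2 stayed uncalled (-0.19) and 1870 of 3282 IDs were called, 970 of them higher in HiII. Deviations of same-coded libraries correlated at 0.248 across IDs. The fitted dispersion (spread between libraries) was 0.0699 without the block and 0.0230 with it. Even so, with only 2 codes and no label on what they mark, the codes are not taken as pairs. Depth limits the B73 values most, at 29 to 73 counts per member and library.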
